A study of Homo sapiens with 36 samples.

Results

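The USP family of ubiquitin-specific proteases was described here in human THP-1 macrophages, over 12 groups that differ by genotype, treatment and time. Members were the protein-coding rows whose current symbol is USP followed by a number and, where present, a letter, with the USP17L copies left out. That rule found 50 of the 21599 rows in the deposited table, and all 50 passed a filter on low values. RefSeq lists 52 such protein-coding symbols, and USP26 and USP29 were not analysed here. USP6NL meets the rule by its name, although its protein is a GTPase-activating protein for RAB5 and not a protease.

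THP-1 is an established human monocytic leukaemia line. All 36 libraries came from cells given the phorbol ester PMA at 100 nM for 72 h, which turns these monocytes into adherent macrophage-like cells. The cells were wild type (WT) or knocked out for IRG1 (KO). The gene, now named ACOD1, encodes the mitochondrial enzyme that makes itaconate. Each genotype received vehicle, or LPS at 200 ng/mL together with IFN-γ at 200 ng/mL, for 6, 12 or 24 h, with 3 libraries in each of the 12 groups. The labels do not say whether the KO cells are 1 clone, nor whether the replicates were separate cultures, so the p-values reflect the spread among these libraries and nothing wider.

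Ubiquitin is a small protein that is joined to other proteins to mark them for the proteasome, to change their place in the cell or to build signalling platforms. Deubiquitinases cut it off again, and the USP family is the largest class of them in human cells. In macrophages the chains that form on signalling adaptors below Toll-like and interferon receptors are trimmed by several of these enzymes, and USP18 removes the ubiquitin-like modifier ISG15.

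Values are the deposited log2 values, on which a difference of 1 is a 2-fold change. A log2 change is the difference of 2 group means and is followed by ± its standard error. A gene was called, and is said to have risen or fallen, at an adjusted p below 0.05 in limma (Benjamini-Hochberg over the 21232 genes kept). Triplets of changes run in the order 6, 12 and 24 h. A linear fold is printed only for 2 groups that both average at least log2(10), which is 3.32. The values are not scaled by transcript length, so levels were not compared between genes.

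The targeted gene checked the labels in part. In vehicle, ACOD1 did not exceed 0.86 in any library. In stimulated WT libraries it lay between 9.20 and 12.76, and in stimulated KO libraries between 7.98 and 10.22. Its RNA was thus lower on average and not absent in the KO cells. Replicate 2 was the highest KO library at 12 h (10.22, beside 7.98 and 8.49) and at 24 h (9.78, beside 8.31 and 8.60). Both lay above stimulated WT replicate 3 at 24 h (9.20), so ACOD1 did not set every KO library apart from WT. The difference between KO and WT was -3.31, -2.69 and -1.48, the last not called (adjusted p = 0.0597). All 12 monocyte and macrophage markers listed stood at or above 3.32 in all 36 libraries. Of 14 markers of other cell types, 9 had a row, 3 had a median at or above 3.32 (CD8A, COL1A1 and PECAM1), and PECAM1 was there in all 36 libraries. On the log2 scale the summed level of those 9 lay between 7.97 and 9.46 in WT libraries and between 7.22 and 8.38 in KO libraries, and that of the macrophage markers between 14.10 and 16.09 and between 13.54 and 15.00. In vehicle 4, 4 and 3 of the 12 macrophage markers were called lower in KO than in WT at 6, 12 and 24 h. In stimulated cells 3, 2 and 1 were, and none was called higher in either treatment. Of all genes 8.19%, 5.24% and 3.98% were called in vehicle, and 8.71%, 3.45% and 5.87% in stimulated cells. The part of either marker list in the differences between genotypes was not tested. Replicate 2 of stimulated KO cells at 6 h stood apart from its group (mean correlation 0.839), as did replicate 3 of stimulated WT cells at 24 h (0.870), and no 2 libraries held identical values.

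Stimulation moved the family in both directions. In WT cells 8 members rose and 9 fell at 6 h, where 36% of all genes were called, 15.1% up and 20.9% down. At 12 h 10 rose and 10 fell, beside 38.5% of all genes called (16.8% up, 21.7% down). At 24 h 9 rose and 10 fell, beside 46.4% (20.2% up, 26.1% down). In KO cells 7 rose and 13 fell at 6 h, beside 38.7% of all genes (16.2% up, 22.5% down). At 12 h 12 rose and 6 fell, beside 35% (15.5% up, 19.5% down), and at 24 h 9 rose and 4 fell, beside 38.9% (17.3% up, 21.6% down). The share of members called was 34%, 40% and 38% in WT cells, against 40%, 36% and 26% in KO, so the member share was near that of all genes at 6 and 12 h and below it at 24 h in both genotypes. The median change of the 50 members was -0.18, -0.16 and -0.18 in WT, beside -0.17, -0.18 and -0.11 for all genes. In KO it was -0.12, 0.01 and 0.06, beside -0.20, -0.12 and -0.08 for all genes.

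**Figure D1:**
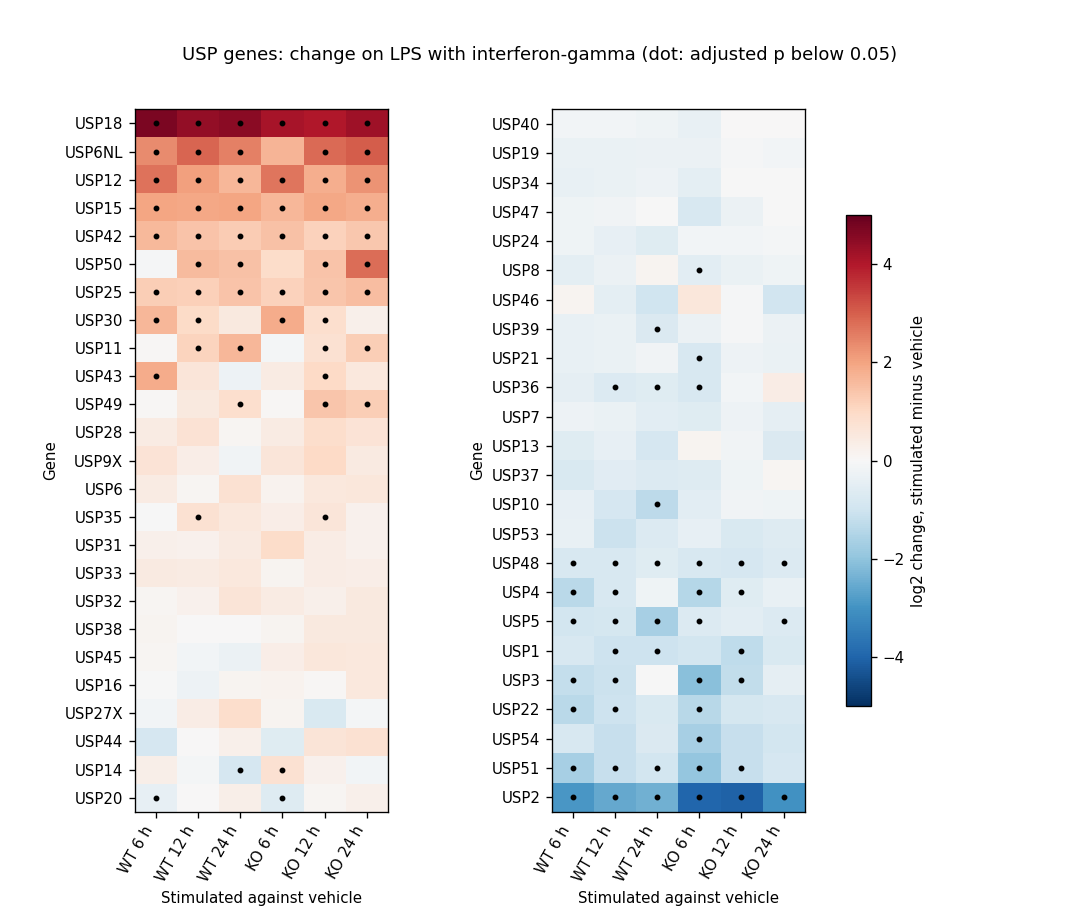
Log2 change with stimulation (colour, stimulated minus vehicle) of the members in 6 comparisons, WT and KO at 6, 12 and 24 h. Genes are ordered by their mean change, a black dot marks an adjusted p below 0.05, and USP9Y is not drawn. USP18 stands at the top with changes from 3.99 to 4.70 and USP2 at the bottom with changes from -4.05 to -2.42.

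Of the 50 members, 29 were called in at least 1 of the 6 stimulation comparisons and 21 in none, while 71.3% of all genes were called in at least 1. USP12, USP15, USP18, USP25 and USP42 rose at all 3 times in both genotypes, as did 7.39% of all genes. USP2 and USP48 fell at all 3 times in both, as did 7.24% of all genes. In WT cells alone the calls at all 3 times also took in USP6NL, which rose, and USP5, USP51 and USP9Y, which fell. Whether these differed between genotypes is given by the interaction tests described further down.

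The sequences before the starts of 3 of the 5 lasting risers were at hand in RefSeq (GRCh38.p14) and are shown because the genes rose together. Each is the 250 bases before the annotated start, 5′ to 3′ on the strand of the gene. Capitals mark the GC box GGGCGG or its reverse complement, the core of the site that Sp1-like factors bind. USP12 lies at chr13:27171812-27172061 on the minus strand, USP15 at chr12:62260154-62260403 on the plus strand, and USP25 at chr21:15729732-15729981 on the plus strand.
USP12: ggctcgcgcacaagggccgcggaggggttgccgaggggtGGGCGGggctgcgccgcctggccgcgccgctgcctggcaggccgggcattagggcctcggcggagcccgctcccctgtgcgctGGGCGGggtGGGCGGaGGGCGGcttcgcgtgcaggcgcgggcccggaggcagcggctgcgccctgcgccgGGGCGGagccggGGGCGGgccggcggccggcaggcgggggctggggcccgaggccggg
USP15: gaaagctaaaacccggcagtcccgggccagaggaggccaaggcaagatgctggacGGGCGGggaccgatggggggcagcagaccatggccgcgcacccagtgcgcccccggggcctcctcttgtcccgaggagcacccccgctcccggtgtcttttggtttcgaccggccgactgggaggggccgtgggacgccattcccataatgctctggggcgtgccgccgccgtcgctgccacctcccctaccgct
USP25: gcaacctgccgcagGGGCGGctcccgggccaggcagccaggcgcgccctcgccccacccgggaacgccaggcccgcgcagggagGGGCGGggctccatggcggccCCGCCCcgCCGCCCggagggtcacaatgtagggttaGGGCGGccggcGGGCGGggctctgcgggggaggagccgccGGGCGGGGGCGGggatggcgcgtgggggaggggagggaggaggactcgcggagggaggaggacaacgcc
The USP12 window holds 6 GC boxes and is 84.8% G and C, the USP25 window holds 8 at 80.8%, and the USP15 window holds 1 at 70.4%. The window of USP2, which fell, holds 3 at 83.2%. The USP25 window is as RefSeq gives it and could not be matched to a GENCODE transcript start. Over the family, 39 members had 52 windows, and 37 of these windows held a GC box, beside 42.6% of all 35116 windows in the table. USP18 had no window, so it was not searched for any motif. The core GAAANNGAA of the sites that interferon regulatory factors bind, searched on both strands, was in 2 member windows, those of USP11 and USP33, and in 6.88% of all windows. The gamma-activated site TTCNNNGAA, also searched on both strands, stood in the windows of USP7 and USP27X and in 6.57% of all. Neither was in the windows printed above. These motifs can overlap one another. A match or its lack describes these letters only, and motifs further away were not searched.

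USP18 had the largest rise of the family in every stimulation comparison. It cuts ISG15 from proteins and also binds the type I interferon receptor, where it dampens signalling. In WT vehicle cells the 6 h libraries stood at 4.84, 6.76 and 6.60. Those of 12 h stood at 4.67, 8.09 and 6.35, and those of 24 h at 4.91, 7.12 and 6.32. Replicate 1 was the lowest of its group at each time. Stimulated WT libraries read 10.63, 10.91 and 10.77, then 10.83, 10.21 and 11.22, then 10.78, 10.60 and 10.53. In KO cells the vehicle libraries stood at 6.62, 7.36 and 6.04, next at 6.34, 7.10 and 6.04, and last at 5.49, 6.40 and 5.65. The stimulated ones stood at 10.89, 10.66 and 10.86, next at 10.39, 10.36 and 10.70, and last at 9.89, 10.26 and 10.12. Every stimulated library lay above every vehicle library, with no overlap.

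The USP18 rise was 4.70 ± 0.57, 4.38 ± 0.57 and 4.52 ± 0.57 in WT, or 26.1-fold, 20.9-fold and 22.9-fold. In KO it was 4.13 ± 0.57, 3.99 ± 0.57 and 4.25 ± 0.57, or 17.5-fold, 15.9-fold and 19-fold. The largest adjusted p of the 6 was 2.48e-06. The difference between the KO and WT rises was -0.57 ± 0.80, -0.39 ± 0.80 and -0.27 ± 0.80, which was not called at any time. USP41P, a pseudogene close in sequence to USP18, rose by 3.66, 3.16 and 2.79 in WT cells, and in KO cells by 3.17, 2.61 and 2.68. How reads shared by the pair were assigned is not given in the sources used here, so the size of each rise is uncertain.

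Most other genes of the ISG15 pathway rose beside USP18. Of 8 listed genes (ISG15, its conjugating enzymes and their partners), 7, 7 and 8 rose in WT cells, against 6, 6 and 6 in KO, and none fell. ISG15 itself rose by 4.53, 4.20 and 4.53 in WT cells, and in KO cells by 6.56, 5.70 and 5.82. HERC5, the ligase that attaches ISG15, rose by 4.66, 3.56 and 3.71 in WT cells, and in KO cells by 5.65, 4.97 and 4.88. STAT2, through which USP18 reaches the interferon receptor, rose by 3.23, 3.09 and 3.14 in WT cells, and in KO cells by 3.40, 3.58 and 3.49. The interaction called none of the 8 at any time. In vehicle 1 of the 8 was called lower in KO than in WT at each time, and in stimulated cells none was called. At 6 h ISG15 averaged 10.57 in WT and 8.97 in KO vehicle, and 15.10 and 15.53 with stimulation. HERC5 averaged 5.43 and 3.42 in vehicle, and 10.09 and 9.08 with stimulation.

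Among the 8 members known from NF-kB, Toll-like receptor and antiviral signalling, 2 rose in each of the 6 comparisons, and they were USP15 and USP25 throughout. In the same group 3, 2 and 1 fell in WT cells, against 4, 2 and 1 in KO. The shares of all genes that rose or fell in each comparison were given above. Neither this group nor the other role groups and lists were tested against them.

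USP15 is known to act on TGF-β receptor complexes and on the antiviral ligase TRIM25. In WT it read 7.06, 7.26 and 7.16 in vehicle and 9.29, 9.34 and 8.79 with stimulation at 6 h. In KO at 6 h it read 7.12, 6.53 and 6.99 in vehicle and 9.18, 7.34 and 9.06 with stimulation. At 12 and 24 h stimulated libraries lay between 8.99 and 9.59 and vehicle libraries between 7.11 and 7.64. The groups did not overlap in any comparison, and the lowest stimulated value, 7.34, was in the KO library that stood apart. The rise was 1.98, 1.93 and 1.96 in WT cells, against 1.65, 1.92 and 1.81 in KO, each ± 0.29, or between 3.13-fold and 3.95-fold. No trend with time was called.

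USP25 is a partner of the TRAF adaptors that carry Toll-like receptor and interleukin-17 signals. In stimulated WT libraries it read 7.95, 8.00 and 7.26 at 6 h against 6.46, 6.69 and 6.32 in vehicle. Stimulated KO libraries at 6 h read 8.10, 5.76 and 7.82 against 6.43, 5.53 and 6.22, so that replicate 2 overlapped the vehicle group. The rise was 1.24, 1.19 and 1.42 in WT cells, against 1.17, 1.38 and 1.56 in KO, each ± 0.40. The calls of USP25 at 6 h in both genotypes and at 12 h in WT were each lost when some single library was left out. The values were then 0.73 to 0.90 in KO at 6 h, and 1.11 to 1.14 at 6 h and 1.03 to 1.15 at 12 h in WT.

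USP2 had the largest fall. It is a clock-regulated enzyme with cyclin D1 among its substrates, and it has been tied to TNF signalling. In WT vehicle cells it stood at 5.99, 7.04 and 5.15 after 6 h, at 5.81, 7.01 and 5.10 after 12 h, and at 5.79, 6.85 and 5.67 after 24 h. Stimulated WT libraries read 3.39, 3.90 and 2.21, then 4.58, 2.54 and 3.08, then 3.90, 4.37 and 2.79. KO vehicle libraries lay between 5.79 and 7.24, and stimulated KO libraries between 2.12 and 4.11. No stimulated library reached any vehicle library of either genotype.

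The fall of USP2 was -2.89 ± 0.59, -2.57 ± 0.59 and -2.42 ± 0.59 in WT cells, against -3.97 ± 0.59, -4.05 ± 0.59 and -3.03 ± 0.59 in KO. At 24 h this was a 5.34-fold lower level in WT and an 8.15-fold lower level in KO. Several stimulated group means were under log2(10), where no fold is given. The KO fall was the larger by 1.08, 1.48 and 0.61 (± 0.84 each), a difference that was not called at any time. USP2-AS1, an antisense gene next to USP2, fell by 1.82, 1.85 and 1.73 in WT cells, and in KO cells by 2.44 and 2.19 at 12 and 24 h.

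**Figure D2:**
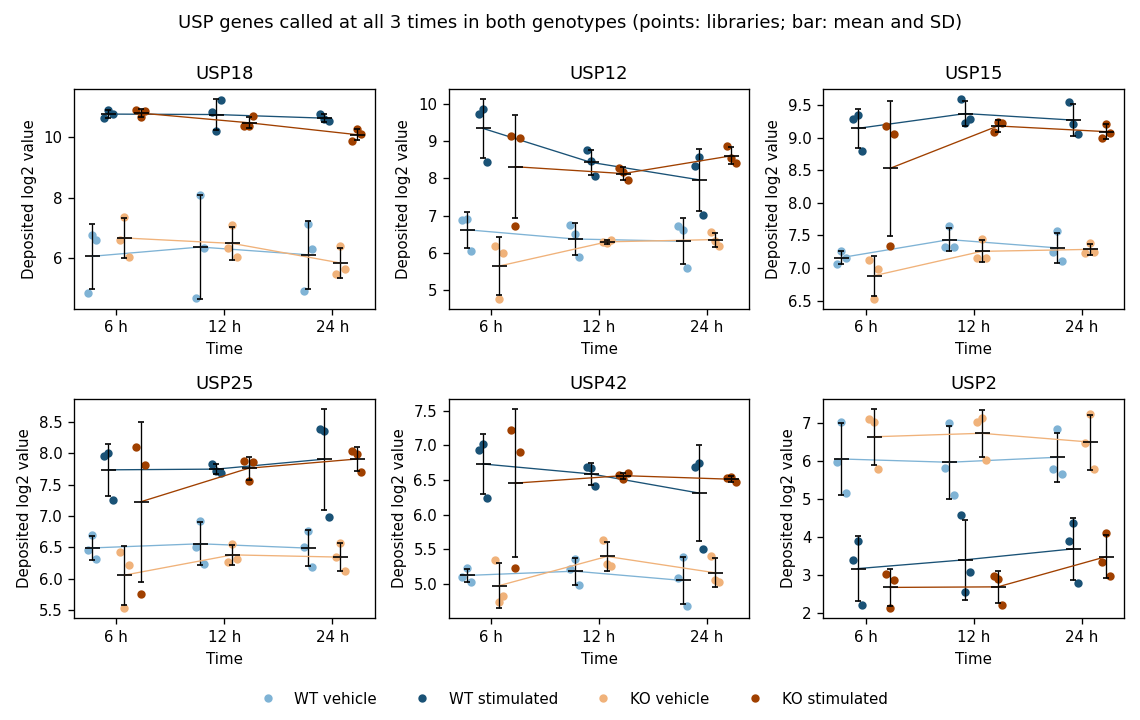
Deposited log2 value of 6 members called at all 3 times in both genotypes, against time (6, 12 and 24 h). Points are libraries, bars are the mean ± SD (n = 3), and colours give genotype and treatment. Within a genotype and time, stimulated libraries lie above vehicle for USP18, USP12 and USP15 and below it for USP2, while 1 stimulated KO library at 6 h falls to the vehicle level for USP25 and USP42.

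USP4 and USP20 fell early and then recovered. USP4, a close paralog of USP15, read 8.55, 8.61 and 8.25 in WT vehicle at 6 h and 7.20, 7.31 and 6.90 with stimulation. In KO at 6 h it read 8.43, 8.20 and 8.08 in vehicle and 7.13, 6.48 and 6.85 with stimulation, again with no overlap. Its change was -1.33, -0.80 and -0.23 in WT cells, against -1.41, -0.59 and -0.39 in KO, each ± 0.20, and was called at 6 and 12 h. From 6 to 24 h in stimulated cells USP4 rose by 0.92 in WT cells, and in KO cells by 1.05. USP20, which acts on the antiviral adaptor STING, fell by 0.42 ± 0.15 in WT cells, and in KO cells by 0.65 ± 0.15 at 6 h and then rose by 0.69 and 0.87 from 6 to 24 h. USP21, known for acting on RIPK1, fell in KO at 6 h (-0.79 ± 0.25), where the groups overlapped. USP31 and USP38 were called in no stimulation comparison. Without replicate 2 of stimulated KO cells at 6 h the USP38 value there went from 0.14 to 0.93 ± 0.34 and was called (adjusted p = 0.0311), and so was that of USP33, from 0.13 to 0.96 ± 0.35 (adjusted p = 0.0317).

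The comparison of 24 h with 6 h within a group gave the timing over the family. In stimulated WT cells 9 members rose and 5 fell from 6 to 24 h, where 22.8% of all genes were called (10.8% up, 12% down). In stimulated KO cells 12 rose and 1 fell, beside 27.5% (14.5% up, 13% down). USP3, USP4, USP8, USP11, USP20, USP44, USP49 and USP50 rose in both genotypes, USP6 in WT, and USP36, USP38, USP6NL and USP9Y in KO. USP30 fell in both, and USP5, USP12, USP14 and USP43 fell in WT. In vehicle no member was called in either genotype (0.0895% of all genes in WT cells, against 0.834% in KO), and 2 members had an unadjusted p below 0.05 in each. Without replicate 2 of stimulated KO cells at 6 h the KO calls gained a fall of USP14 (-1.14 ± 0.22, adjusted p = 0.000432) and a rise of USP16 (0.59 ± 0.21, adjusted p = 0.0474), and the rises of USP38 (from 1.14 to 0.34) and of USP6NL (from 1.97 to 1.27) were not called. The fall of USP12 in WT went from -1.38 to -0.90, not called, without replicate 3 of the stimulated WT group at 24 h, and was also lost without replicate 1 (-1.18) or 2 (-1.12) at 6 h.

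Of the 8 histone and chromatin members, 3, 4 and 2 fell in WT cells, against 4, 2 and none in KO, and USP49 alone rose. USP3, which removes ubiquitin from histone H2A, read 6.61, 6.30 and 6.27 in WT vehicle at 6 h and 5.21, 5.50 and 4.91 with stimulation. KO cells at 6 h read 6.78, 6.32 and 6.50 in vehicle and 4.59, 3.89 and 4.81 with stimulation. At 24 h the stimulated libraries overlapped the vehicle libraries, at 6.51, 7.41 and 5.37 in WT cells, against 5.75, 6.80 and 5.55 in KO. In KO only replicate 2 did so. The changes were -1.19, -1.07 and -0.04 in WT cells, against -2.10, -1.24 and -0.44 in KO, each ± 0.37. Without 4 doubted libraries, that KO replicate among them, the KO value at 24 h was called (-0.82, adjusted p = 0.0284). USP3 was then also called lower in stimulated KO than in stimulated WT cells at 24 h (-1.31, adjusted p = 0.0142). The WT calls of USP3 were lost at 6 h without vehicle replicate 1 (-1.08) or stimulated replicate 3 (-1.04), and at 12 h without vehicle replicate 1 (-0.93) or stimulated replicates 1 (-0.93) or 3 (-0.85). USP3-AS1, which overlaps USP3, changed by -0.93, -0.94 and -1.35 in WT, with only the last called, and fell by 1.98, 2.15 and 1.47 in KO.

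USP22, the protease of the SAGA coactivator complex, fell by 1.36 and 1.03 at 6 and 12 h in WT cells, and in KO cells by 1.39 at 6 h, each ± 0.41. The KO call was lost without replicate 2 of stimulated KO cells at 6 h (-1.01) or replicate 1 of their vehicle (-1.12). The WT call was lost at 6 h without vehicle replicate 1 (-1.17) or stimulated replicate 3 (-1.01), and at 12 h without any 1 of its 6 libraries (-1.19 to -0.80). USP51 and USP27X can take its place with the same SAGA cofactors. USP51 fell by 1.67, 1.14 and 0.92 in WT cells, and in KO cells by 1.95 and 1.14 at 6 and 12 h, each ± 0.38, and USP27X was not called. Of 12 listed cofactors and partners of USP proteins, 2, 4 and 5 rose and 2, 2 and 1 fell in WT, and 2, 3 and 5 rose and 2, 2 and 1 fell in KO. ATXN7, a SAGA subunit that holds the USP22 module, rose by 1.48, 1.83 and 2.29 in WT cells, and in KO cells by 1.48, 1.62 and 1.99. ENY2, another subunit of that module, rose by 1.05, 0.91 and 0.71 in WT cells, and in KO cells by 1.02, 0.87 and 0.68. GMPS, also among the 12, fell at each time, with changes of -1.10, -1.23 and -1.88 in WT and -1.05, -1.17 and -1.51 in KO.

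USP49, which acts on histone H2B, rose late. Stimulated libraries at 24 h read 6.38, 5.59 and 5.70 in WT, where vehicle libraries read 5.43, 5.00 and 4.76. The KO libraries read 5.44, 5.93 and 5.34 with stimulation, and 4.70, 4.30 and 4.02 in vehicle. The groups did not overlap at 24 h. At 6 h the stimulated KO libraries had stood at 4.32, 3.01 and 4.47. Its change was 0.06, 0.49 and 0.83 in WT cells, against 0.07, 1.39 and 1.23 in KO, each ± 0.33. Leaving out replicate 1 of stimulated WT cells at 24 h lowered the WT value at 24 h to 0.58, which was not called.

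Among the 8 members tied to p53, DNA damage and repair, 1, 2 and 2 rose and 0, 1 and 2 fell in WT, and 1, 2 and 2 rose and 0, 1 and 0 fell in KO. USP42, a p53 deubiquitinase, was one of the lasting risers. It read 5.10, 5.23 and 5.03 in WT vehicle at 6 h and 6.94, 7.02 and 6.24 with stimulation. KO cells at 6 h read 5.35, 4.74 and 4.83 in vehicle and 7.23, 5.23 and 6.91 with stimulation, overlapping through replicate 2. The rise was 1.61, 1.41 and 1.27 in WT cells, against 1.48, 1.17 and 1.35 in KO, each ± 0.35. USP36, its nucleolar paralog, had values of -0.43, -0.69 and -0.61 in WT, called at 12 and 24 h, and in KO fell by 0.80 at 6 h alone.

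USP11, a nuclear member known from homologous recombination and a paralog of USP4 and USP15, rose late. At 6 h stimulated WT libraries read 7.32, 7.73 and 7.51 against 7.32, 7.32 and 7.71 in vehicle, and the groups overlapped. At 24 h they read 8.40, 8.77 and 8.46 against 6.65, 7.09 and 6.96. Stimulated KO libraries at 24 h read 8.41, 8.70 and 8.50 against 7.26, 7.13 and 7.49. The change was 0.07, 1.11 and 1.64 in WT cells, against -0.09, 0.78 and 1.24 in KO, each ± 0.19. The 3 paralogs therefore moved in 3 ways, USP15 up throughout, USP4 down early and USP11 up late.

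USP1, which with WDR48 acts on FANCD2 and PCNA, fell by 1.03 and 1.05 at 12 and 24 h in WT cells, and in KO cells by 1.26 at 12 h, each ± 0.36. The WT value at 24 h was -0.79, not called, without replicate 3 of the stimulated group. USP10, a p53 regulator bound to the stress granule protein G3BP1, fell in WT at 24 h (-1.32 ± 0.39), and its value was -0.93, not called, without that same library. USP28, the paralog of USP25, and USP7, the main MDM2 deubiquitinase, were not called. Without replicate 2 of stimulated KO cells at 6 h USP28 rose by 1.21 ± 0.35 there. Without replicate 1 of that group the USP7 value went from -0.60 to -0.98 ± 0.37 and was called (adjusted p = 0.0381).

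Among the 9 members of endosomes, membrane traffic and receptors, USP12 rose at all 3 times in both genotypes. USP12 works with the cofactors WDR48 and WDR20. WT vehicle libraries at 6 h read 6.90, 6.91 and 6.07 and stimulated ones 9.73, 9.85 and 8.44. KO vehicle libraries at 6 h read 6.18, 4.78 and 6.00 and stimulated ones 9.13, 6.72 and 9.09. At 24 h stimulated libraries read 8.32, 8.57 and 7.01 in WT cells, against 8.86, 8.54 and 8.42 in KO, all above the vehicle libraries of their genotype. The rise was 2.71, 2.05 and 1.65 in WT cells, against 2.66, 1.83 and 2.24 in KO, each ± 0.49, which was 6.56-fold and 6.32-fold at 6 h. Without replicate 3 of the WT vehicle group at 24 h the WT rise at 24 h was 1.29 and not called. USP46, its closest paralog, was not called, with KO values from -0.96 at 24 h to 0.55 at 6 h.

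USP6NL, the RAB5 regulator, had the largest rise after USP18 at 12 and 24 h in both genotypes. WT vehicle libraries read 3.70, 4.67 and 2.91 at 6 h and stimulated ones 6.34, 6.87 and 5.14. With stimulation for 12 h they stood at 6.69, 7.35 and 6.39, and for 24 h at 6.54, 7.34 and 4.79. The rise in WT was 2.36, 2.91 and 2.53, each ± 0.68, and the 6 h value was 1.93, not called, without replicate 3 of the vehicle group. In KO it was 2.82 and 3.05 at 12 and 24 h, while the 6 h value of 1.69 missed the threshold (adjusted p = 0.0508). Stimulated KO cells stood at 5.19, 2.58 and 4.15 after 6 h, and at 6.64, 5.23 and 5.97 after 24 h. That KO value was called at 2.39 without replicate 2 of the stimulated group, and at 1.69 with the replicate number as a block (adjusted p = 0.0140).

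USP9Y, the Y-linked paralog of USP9X, fell by 1.91, 1.40 and 2.36 in WT cells, and in KO cells by 1.87 and 2.07 at 6 and 24 h, each ± 0.56. Its calls at 6 h in both genotypes and at 12 h in WT were lost when 5 was added to the linear value. USP9X, an enzyme of endosomal sorting and polarity, was not called. In stimulated KO cells at 6 h USP9X read 10.57, 5.74 and 10.07 against 9.03, 6.99 and 8.53 in vehicle. Without the second of those stimulated libraries its rise was 2.13 ± 0.53 (adjusted p = 0.00207). USP8, which works with STAM on endosomes, fell by 0.55 ± 0.19 in KO at 6 h, and its value was -0.40, not called, without the same library.

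The 6 members of the proteasome, free chains, autophagy, ER and mitochondria gave 1, 2 and 0 rises and 1, 1 and 2 falls in WT, and 2, 2 and 0 rises and 1, 0 and 1 falls in KO. USP30, the deubiquitinase of the outer mitochondrial membrane that opposes parkin, rose early and declined. In stimulated WT cells it stood at 6.18, 6.27 and 6.46 after 6 h, at 5.43, 5.42 and 5.69 after 12 h, and at 4.94, 5.29 and 4.00 after 24 h. Stimulated KO libraries read 6.29, 6.00 and 6.61, then 5.38, 5.82 and 5.37, then 4.71, 4.71 and 4.66. Vehicle libraries of both genotypes lay between 3.98 and 4.87. The stimulated groups cleared the vehicle groups at 6 and 12 h and met them at 24 h.

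The change of USP30 was 1.64, 0.96 and 0.48 in WT cells, against 1.84, 0.85 and 0.24 in KO, each ± 0.25, and the 24 h values were not called. From 6 to 24 h it fell by 1.56 in stimulated WT cells and by 1.61 in stimulated KO cells. Without replicate 3 of stimulated WT cells at 24 h the WT rise at 24 h was 0.85 and was called, and without replicate 2 of stimulated KO cells at 12 h the KO rise at 12 h was 0.70 and was not. USP30-AS1, which overlaps USP30, rose by 5.53, 5.57 and 5.77 in WT cells, and in KO cells by 4.28, 4.54 and 4.70. Whether the counting used strand is not given in the sources used here, so reads of the overlap may be counted for either gene. In stimulated cells at 24 h USP30-AS1 averaged 9.19 in WT and 8.90 in KO, where USP30 averaged 4.75 and 4.69.

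USP5, which takes apart free ubiquitin chains, fell by 0.92, 0.87 and 1.68 in WT cells, and in KO cells by 0.67 and 0.70 at 6 and 24 h, each ± 0.22. Stimulated WT libraries at 24 h read 6.27, 6.04 and 5.49 against 7.62, 7.69 and 7.51 in vehicle, with no overlap. USP13, its paralog, was not called in any stimulation comparison. USP14, the proteasome-bound member, was the single gene called in both directions. It fell by 0.83 ± 0.28 at 24 h in WT and rose by 0.78 ± 0.28 at 6 h in KO, where the groups overlapped. Leaving out replicate 3 of stimulated WT cells at 24 h took the first to -0.60, leaving out replicate 2 of its vehicle group took it to -0.66, and leaving out 1 of 3 KO libraries took the second to between 0.48 and 0.62, with none of these called. USP35 rose at 12 h alone, by 0.74 in WT cells, against 0.61 in KO.

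Among members without protease activity or with little of it, USP50 rose late. It overlaps USP8 in the RefSeq annotation, and reads of the overlap may be counted for either. Stimulated WT libraries read 4.19, 2.22 and 3.50 at 6 h and 5.39, 5.30 and 6.14 at 24 h, and stimulated KO libraries read 3.88, 4.75 and 4.03 and then 5.58, 5.43 and 5.77. Vehicle libraries at 24 h read 3.97, 4.52 and 3.97 in WT cells, against 2.97, 2.17 and 3.25 in KO, below every stimulated one. The change was -0.04, 1.58 and 1.45 in WT cells, against 0.91, 1.44 and 2.80 in KO, each ± 0.42, with both 6 h values not called. USP39, a splicing factor, fell by 0.74 ± 0.16 at 24 h in WT. USP54 fell by 1.66 ± 0.59 at 6 h in KO, and its value was -1.44, not called, without replicate 2 of the stimulated group. The stimulated KO libraries of USP54 at 6 h read 1.94, 1.20 and 1.81, all under the low-value minimum of 3.32.

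USP48, listed with the Wnt and less described members, fell at each time. Stimulated WT libraries at 6 h read 6.63, 6.74 and 6.65 against 7.48, 7.40 and 7.56, and stimulated KO libraries 7.01, 6.92 and 6.97 against 7.83, 7.53 and 8.00. It fell by 0.81, 0.79 and 0.62 in WT, and the KO values were -0.82, -0.85 and -0.67, each ± 0.16, with no overlap of groups at any time. USP43, listed with the cell cycle members, rose by 1.84 ± 0.39 at 6 h in WT cells, and in KO cells by 0.99 ± 0.39 at 12 h, the latter lost when 5 was added to the linear value. From 6 to 24 h in stimulated WT cells USP43 fell by 1.49, to 3.68, 2.92 and 2.70, below every 6 h library. USP44, a chromatin member tied to the spindle checkpoint, was called only in time, rising by 1.33 and 1.64 from 6 to 24 h in stimulated WT and KO cells. Its stimulated WT libraries stood at 1.49, 1.91 and 2.37 after 6 h, and at 3.36, 3.37 and 3.05 after 24 h. In stimulated KO cells they stood at 2.47, 2.06 and 3.14, and later at 4.65, 4.25 and 3.69. No 24 h library overlapped the 6 h libraries of its genotype, and the WT value was 1.12, not called, without replicate 1 at 6 h. USP6 rose by 1.53 from 6 to 24 h in stimulated WT cells, from 3.90, 3.96 and 3.27 to 5.28, 5.52 and 4.93, a call lost when any of 5 single libraries was left out (1.31 to 1.66).

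**Figure D3:**
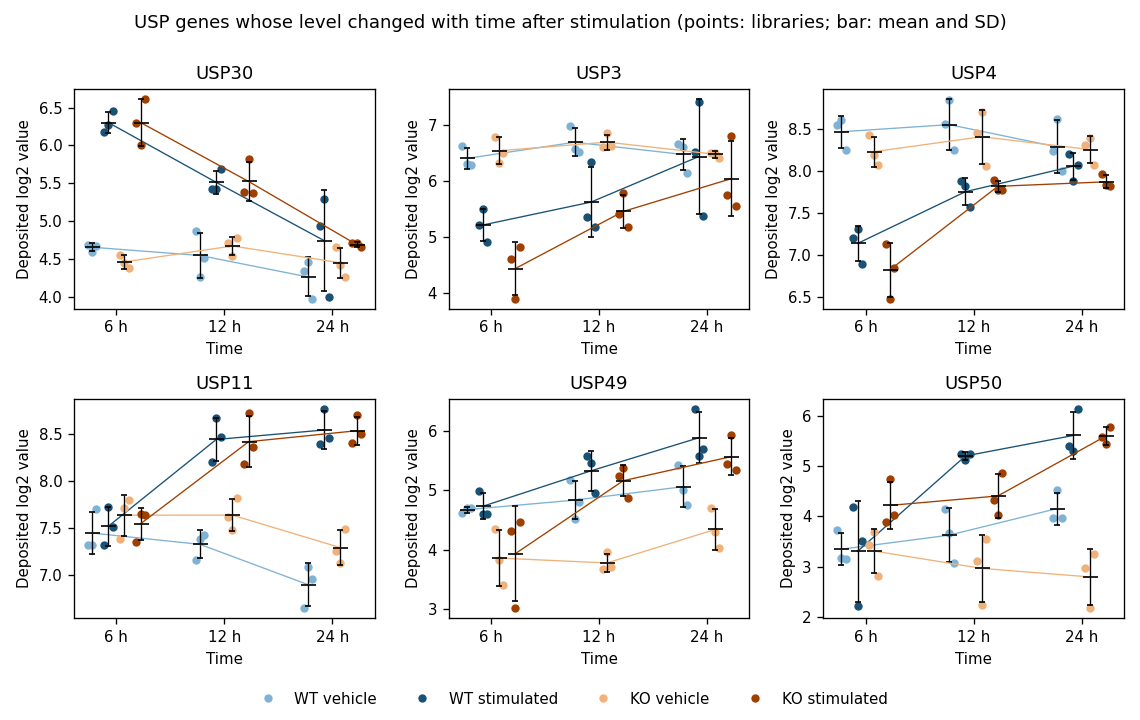
Deposited log2 value of 6 members whose stimulated level differed between 6 and 24 h, against time. Points are libraries, bars are the mean ± SD (n = 3), and colours give genotype and treatment. USP30 starts high and meets the vehicle libraries at 24 h, USP3 and USP4 start low and return toward them, and USP11, USP49 and USP50 separate from vehicle at 12 or 24 h.

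With the replicate number as a block, further calls appeared at unchanged values in the stimulation comparisons where every like-numbered pair of libraries correlated over 0.1. At 6 h they were USP8 and USP39 in WT (-0.48 and -0.36) and USP1, USP31 and USP6NL in KO (-0.90, 0.90 and 1.69). At 12 h they were USP53 and USP54 in WT (-1.06 and -1.14) and USP5, USP22 and USP54 in KO (-0.52, -0.86 and -1.16). At 24 h they were USP27X and USP35 in WT (0.89 and 0.53).

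Members called in none of the 12 stimulation and genotype comparisons numbered 20, and 26.3% of all genes were called in none of these. They were USP6, USP7, USP9X, USP16, USP19, USP24, USP27X, USP28, USP31, USP32, USP33, USP34, USP37, USP38, USP40, USP44, USP45, USP46, USP47 and USP53. A missed call does not show that they held still. Group means of USP19 spanned 0.51 and those of USP16 spanned 0.65 over the 12 groups, among the narrowest of the family, while those of USP9X spanned 1.73.

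Deubiquitinases outside the USP family also moved both ways. Of 34 measured, 7, 8 and 8 rose and 6, 4 and 6 fell in WT, and 9, 10 and 10 rose and 5, 5 and 4 fell in KO. Of all genes, 15.1%, 16.8% and 20.2% rose and 20.9%, 21.7% and 26.1% fell in WT. The shares in KO were 16.2%, 15.5% and 17.3% up and 22.5%, 19.5% and 21.6% down. TNFAIP3, the A20 brake on NF-kB, rose by 5.23, 4.83 and 4.78 in WT cells, and in KO cells by 5.44, 5.65 and 5.74. STAMBPL1 rose by 3.45, 3.90 and 3.36 in WT cells, and in KO cells by 5.24, 5.26 and 4.95. CYLD, which cuts linear and K63-linked chains, rose by 2.96, 2.51 and 2.38 in WT cells, and in KO cells by 3.55, 3.71 and 3.33. OTUB2 fell by 2.11, 2.43 and 1.84 in WT cells, and in KO cells by 2.33, 1.62 and 1.55.

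Few members were called between genotypes. In vehicle 1 member was called at 6 h (8.19% of all genes called), and none at 12 h (5.24%) or 24 h (3.98%). In stimulated cells 2 members were called at 6 h (8.71%), 1 at 12 h (3.45%) and 1 at 24 h (5.87%). In these 6 comparisons 6, 5, 4, 8, 5 and 6 members had an unadjusted p below 0.05. The interaction of genotype and stimulation called no member at any time (0.452%, 0.16% and 0.433% of all genes), with 1, 0 and 3 at an unadjusted p below 0.05. Those 4 were USP43 at 6 h (-1.43 ± 0.55, adjusted p = 0.394) and, at 24 h, USP50 (1.35 ± 0.60), USP36 (1.00 ± 0.32, adjusted p = 0.156) and USP5 (0.98 ± 0.32).

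USP43 was lower in stimulated KO cells at 6 h. The KO libraries read 2.21, 2.66 and 2.70 and the WT libraries 4.86, 4.81 and 4.12, with no overlap. The difference was -2.07 ± 0.39 (adjusted p = 0.000951). USP6NL was also lower in that comparison (-2.14 ± 0.68, adjusted p = 0.0470), with KO libraries at 5.19, 2.58 and 4.15 and WT libraries at 6.34, 6.87 and 5.14, which overlap. The USP6NL call was lost when any of 4 single libraries was left out, with values from -2.23 to -1.44, the last without the second KO library. Without that library USP14 was called as higher in KO (0.74 ± 0.22, adjusted p = 0.0349) in place of 0.21.

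USP36 was higher in stimulated KO cells at 24 h, at 6.95, 6.84 and 6.87 against 6.31, 6.10 and 5.84 in WT. The difference was 0.81 ± 0.22 (adjusted p = 0.0315), with no overlap. The call was lost without replicate 3 of the WT group (0.69), or without replicate 1 (0.77) or 3 (0.82) of the KO group. USP13, an autophagy and ER-associated paralog of USP5, was lower in vehicle KO cells at 6 h, at 5.75, 4.25 and 5.38 against 6.52, 6.69 and 5.97. The difference was -1.27 ± 0.38 (adjusted p = 0.0324), and the call was lost without WT replicate 1 (-1.21) or 2 (-1.12) or without KO replicate 2 (-0.83) or 3 (-1.40). USP9Y was higher in stimulated KO cells at 12 h by 2.11 ± 0.56 (adjusted p = 0.0292), a call lost when 5 was added to the linear value (1.00) or when any of 5 single libraries was left out (1.75 to 2.41).

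In the genotype comparisons where every like-numbered pair correlated over 0.1, those at 12 and 24 h, the replicate block added 3 calls. They were USP49 in vehicle at 12 h (-1.06, adjusted p = 0.0220), USP50 in vehicle at 24 h (-1.36, adjusted p = 0.0426) and USP9Y in stimulated cells at 24 h (1.60, adjusted p = 0.0407). Between 6 and 24 h in vehicle KO cells it added a rise of USP9Y (1.96, adjusted p = 0.0391). USP5 in vehicle at 6 h was not called (-0.66, adjusted p = 0.0676), and was called without the 2 libraries that stood apart (adjusted p = 0.0221). USP49 was lower in KO than in WT vehicle cells in every library at each time, at 4.35, 3.82 and 3.40 against 4.62, 4.70 and 4.71 at 6 h.

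**Figure D4:**
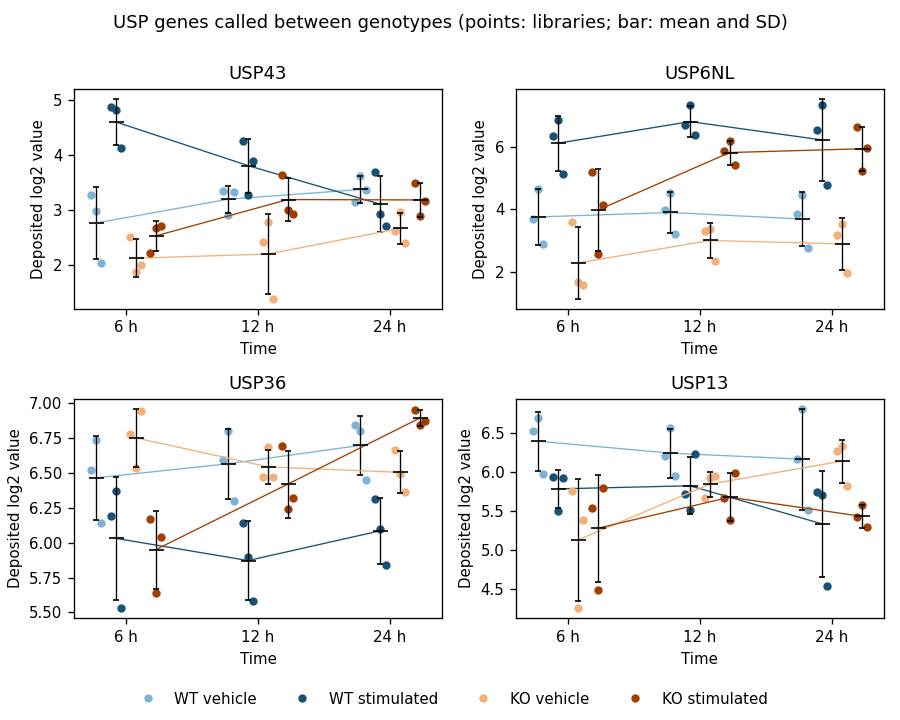
Deposited log2 value of 4 members called between genotypes, against time. Points are libraries, bars are the mean ± SD (n = 3), and colours give genotype and treatment. The stimulated WT libraries of USP43 at 6 h lie between 4.12 and 4.86, above the KO libraries, and the stimulated KO libraries of USP36 at 24 h lie between 6.84 and 6.95.

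The departure of a library from its group moved with transcript length in the libraries that stood apart and in others. In replicate 2 of stimulated KO cells at 6 h 25 members were lower by more than 1 than in the mean of the other 2 libraries and 2 were higher. Members with transcripts longer than the family median of 5163 bases had a median departure of -1.51 there, and shorter ones -0.22. For all protein-coding genes those longer than 5113 bases departed from those shorter than 2115 bases by -1.74 in that library. The like value was -1.04 in replicate 3 of stimulated WT cells at 24 h, where 20 members were lower by more than 1. It was -0.99 in replicate 2 of vehicle KO cells at 6 h (12 members lower), -0.89 in replicate 3 of stimulated WT cells at 6 h (12 members) and -1.11 in replicate 3 of vehicle WT cells at 24 h (11 members). Replicate 3 of WT cells was also negative in vehicle at 6 h (-0.76) and at 12 h in vehicle (-0.60) and with stimulation (-0.51). In KO cells replicate 3 ran from -0.38 to 0.63. RNA integrity was not among the labels, and the part of length in the calls was not tested.

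**Figure D5:**
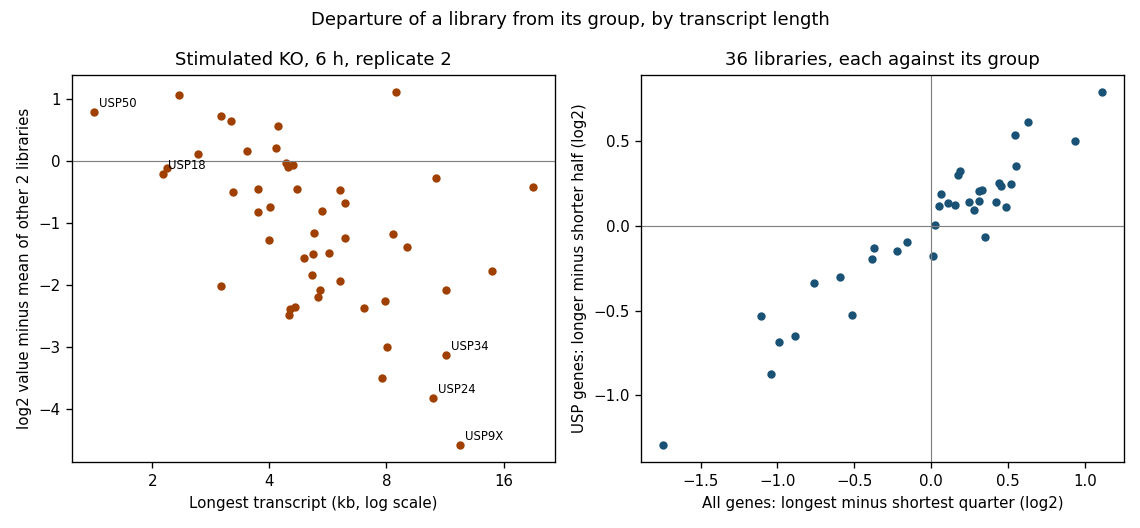
Left, the log2 value of each member in replicate 2 of stimulated KO cells at 6 h minus the mean of the other 2 libraries, against its longest transcript in kb (log axis), 1 point per gene, without USP9Y. Right, for each of 36 libraries, the departure from the other libraries of its group, as longer minus shorter members against the longest minus shortest genes of the whole table. The library with the lowest value on both axes is replicate 2 of stimulated KO cells at 6 h.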

How the data were processed

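RNA was extracted with Qiagen RNeasy and libraries were made with the Roche KAPA HyperPrep kit with RiboErase, per the labels' protocols. The submitters' processing notes name cutadapt 1.9.1, the aligner GSNAP and, as genome build, GRCh37.p5. The counting tool, annotation, use of strand, offset and normalization are not given in the sources used here. The authors deposited 1 table of log2 values per Entrez Gene row, of which 20609 of 21599 matched a current symbol. Library medians ran from 5.4691 to 5.4753. The table holds no counts, so sequencing depth cannot be read from it and is unknown.

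Rows at or above 3.32 in at least 3 libraries were kept (21232, with 367 removed). A model with 12 group means over all 36 libraries was fitted with limma 3.58.1 in R 4.3.3 (eBayes with trend, 24 residual degrees of freedom). The 19 comparisons were stimulation, genotype, their interaction and 24 h against 6 h. The fit was tested on simulated data, in which 100 genes were shifted by 1 and 100 by 2 in 1 group. Of these, 19 and 73 were called, with 4 false calls, so many changes of that size were missed there. With so few genes shifted among 21232, the adjustment was stricter than in the stimulation comparisons, where 7430 to 9847 genes were called. The shares recovered therefore do not carry over to those comparisons. Whether replicate numbers pair libraries was read from the deviations from group means: like-numbered libraries correlated by -0.150 to 0.589, with every pair over 0.1 in 12 of 16 comparisons, and a block fit was run as an alternative.

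The members, roles and lists were chosen with earlier results of these data known. Per-library values, some as ranges, were given for USP18, for up to 6 members per genotype called at all 3 times with the largest mean change, and for up to 4 per group with the largest called change from 6 to 24 h, except the Y-linked USP9Y; other members shown by library were chosen after their values were seen. Transcript lengths were the longest in GENCODE 29, and promoter windows, symbols and overlaps came from RefSeq. Python 3.11.15 with numpy 2.4.6, pandas 2.3.3 and matplotlib 3.10.9 made the tables and drew the figures.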

Additional observations from a re-analysis of the deposited data

How the results depend on the processing

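The 139 called member results in the 19 comparisons kept their direction under every alternative run. All 139 stayed called with no filter, quantile normalization and the replicate block, as did all 87 that could be tested under the stricter filter, which kept the upper part of the genes by mean value. With 5 added to the linear value 7 calls were lost, and with only the libraries compared in the fit 55 were. Leaving out 1 library at a time lost 138 of 834 values, from 50 results. Leaving out 2 or 4 doubted libraries was chosen after seeing the data and lost 9 and 15 calls. The 2 were those that stood apart, and the 4 were these and replicate 2 of stimulated KO cells at 12 and 24 h. In the length measure for all protein-coding genes, these added libraries stood at 0.11 and 0.15. Counts of members called moved by over 1.5 times as follows, and the cause was not tested beyond the smaller number of genes or libraries in a setting. Under the stricter filter 13 were called in WT stimulation at 12 h, 10 in KO stimulation at 12 h, 0 and 0 between genotypes in stimulated cells at 6 and 12 h, and 8 and 7 for 24 h against 6 h in stimulated WT and KO. With only the libraries compared, the counts were 12 in WT stimulation at 24 h and 9 in KO stimulation at 6 h. The same setting gave 0 between genotypes in vehicle at 6 h and 0, 0 and 0 in stimulated cells, and 1 and 1 for 24 h against 6 h in stimulated WT and KO. With 5 added, 0 were called between genotypes in stimulated cells at 12 h and 1 for 24 h against 6 h in vehicle KO. The replicate block gave 2, 1 and 1 between genotypes in vehicle, 2 in stimulated cells at 24 h, and 1 for 24 h against 6 h in vehicle KO, and it changed no other count by that much. In comparisons where not every like-numbered pair correlated over 0.1 the block also called USP16 in KO stimulation at 24 h (0.52), USP5 between genotypes in vehicle at 6 h (-0.66), and USP22, USP32 and USP37 for 24 h against 6 h in stimulated KO (1.01, 0.89 and 1.87). Without the 2 libraries that stood apart 3, 1 and 1 were called between genotypes in vehicle and 0 in stimulated cells at 24 h. Without the 4 doubted libraries these were 4, 1 and 1 in vehicle, with 1 for 24 h against 6 h in vehicle KO and 1 interaction at 6 h, that of USP14 (1.00, adjusted p = 0.0365). Between genotypes in stimulated cells that setting added USP5 and USP14 at 6 h (-0.62 and 0.74), USP53 at 12 h (1.29) and USP3 at 24 h (-1.31). Leaving out 1 library at a time gave 0 to 1 between genotypes in vehicle at 6 h, and 1 to 3, 0 to 1 and 0 to 3 in stimulated cells. For 24 h against 6 h in stimulated KO cells the range was 9 to 22. Depth is unknown, so what it limits cannot be stated. The table gives 1 value a gene, so isoforms and overlapping genes are not separated.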
